A study of Mus musculus with 13 samples.

Results

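The genes described here are 10 regulators of the G1 phase of the cell cycle, in tumours of transgenic mouse models of neuroblastoma and in normal adrenal gland. They were chosen by name, with earlier results of these data known. Every probe set annotated to one of them alone was taken, which gave 10 of the 18194 genes measured and 27 of the 45101 probe sets. They are the D cyclins Ccnd1, Ccnd2 and Ccnd3, cyclin E1 (Ccne1), the kinases Cdk4 and Cdk6, and the kinase inhibitors Cdkn1a, Cdkn1b, Cdkn1c and Cdkn2c. Neuroblastoma is a childhood tumour of the sympathetic nervous system, and the 13 Affymetrix arrays hold tumours from mice with transgenic mutated ALK (mutALK, 3 arrays), MYCN (4 arrays) or both (MYCN AND mutated ALK, here double transgenic, 3 arrays), and adrenal tissue of genotype normal (3 arrays). All mice had a C57BL/6 background, the transgenes were expressed specifically in the neural crest, and tumours were taken once they could be felt. The ALK mutation, the promoter that drives each transgene, and the age of the animals are not given in the sources used here. The labels do not state that each array is a separate animal, and p-values then measure only the spread among these arrays, which may be technical. The titles share a leading number for mutALK 2 and 3 and for MYCN 2 and 3, and what it marks is not stated. Whether the double transgenic arrays were processed together with the others is not given in the sources used here, so a batch of their own could not be told apart from that group. Adrenal gland is a whole organ of mostly steroid-making cortex, so tumour minus adrenal compares tissues of different cell makeup as well as tumour with normal.

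D cyclins are made when growth signals reach a cell. They bind Cdk4 or Cdk6, and the active kinase phosphorylates the retinoblastoma protein, which then releases E2F transcription factors that switch on genes of DNA synthesis. Cyclin E is one of those E2F targets and drives the step into S phase with Cdk2. Inhibitors of the INK4 family, such as Cdkn2c, block Cdk4 and Cdk6, while those of the CIP/KIP family, Cdkn1a (p21), Cdkn1b (p27) and Cdkn1c (p57), act mainly on Cdk2 complexes. In human neuroblastoma cyclin D1 is known for its abundance, and MYC proteins are known to raise Cdk4 and to repress Cdkn1a.

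Values are log2 expression, so a difference of 1 is a doubling. Each gene is given by the probe set whose mean over the arrays was highest, and differences are given as first group minus second ± SE, from a limma model of all 13 arrays over 18194 genes, with Benjamini-Hochberg adjusted p. A gene was called when that adjusted p was under 0.05. The 3 comparisons with the adrenal gland share the same adrenal arrays, so their values are given side by side. The tissue labels were set against defining markers. The mean of 12 adrenal cortex markers was 11.26 to 12.70 in the adrenal arrays and 5.15 to 6.71 in the tumours, and that of 12 pan-neuronal markers was 11.05 to 12.34 in the tumours against 6.33 and 5.51 in adrenal 1 and 3. Adrenal 2 stood apart with a pan-neuronal mean of 10.19. Liver transcripts (10 markers) averaged 8.62 to 11.77 in 5 arrays (mutALK 1 and 3, MYCN 2, adrenal 2 and double transgenic 1) and 4.48 to 6.00 in the other 8. Calls of the 10 genes lost or gained without these arrays are given beside the result, and mutALK is then mutALK 2 alone, whose spread is assumed to be that of the other groups. The mouse Mycn probe set read 12.03 ± 0.33 (SD, n = 3) in mutALK, 6.35 ± 0.86 (n = 4) in MYCN, 10.19 ± 0.64 (n = 3) in double transgenic and 7.69 ± 0.92 (n = 3) in adrenal arrays. It was thus lowest under the MYCN label, and whether it reads the transgene is not given in the sources used here, so it does not check the labels. The mouse Alk probe set read 8.79 ± 0.33 (n = 3) in mutALK and 9.44 ± 0.34 (n = 4) in MYCN arrays. It read 9.11 ± 0.37 (n = 3) in double transgenic and 5.17 ± 0.30 (n = 3) in adrenal arrays. Among the tumours neither mouse probe set followed the driver labels. Whether the Alk probe set reads the transgene is not given in the sources used here either, so it does not check the labels.

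The G1 genes did not move as a block. On their brightest probe sets, Ccnd1, Cdk4 and Cdkn1b were higher than in the adrenal gland in all 3 tumour groups. Ccnd2, Ccnd3, Cdk6 and Cdkn1c were lower in all 3. Between tumour groups 4 genes were called in at least 1 comparison, namely Ccnd3, Ccne1, Cdk4 and Cdkn1a. For Cdkn1a the difference of mutALK minus MYCN was larger than any from the gland. In mutALK minus adrenal 3 of the 10 genes rose and 5 fell, against 21.3% of all genes called higher and 21% called lower. MYCN minus adrenal had 4 that rose and 6 that fell (25.3% and 24.8% of all genes), and double transgenic minus adrenal had 4 that rose and 4 that fell (24.3% and 24.2%). In these 3 comparisons 9, 10 and 10 of the genes had groups that did not overlap, against 48.2%, 53.4% and 53.2% of all genes. Their median absolute difference was 1.88, 2.16 and 2.05, against 0.40, 0.49 and 0.48 over all genes. By probe set, 22, 24 and 21 of the 27 were called in either direction, against 38.5%, 47.3% and 46.2% of all probe sets. The genes were chosen with earlier results of these data known, so these shares are a description.

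**Figure D1:**
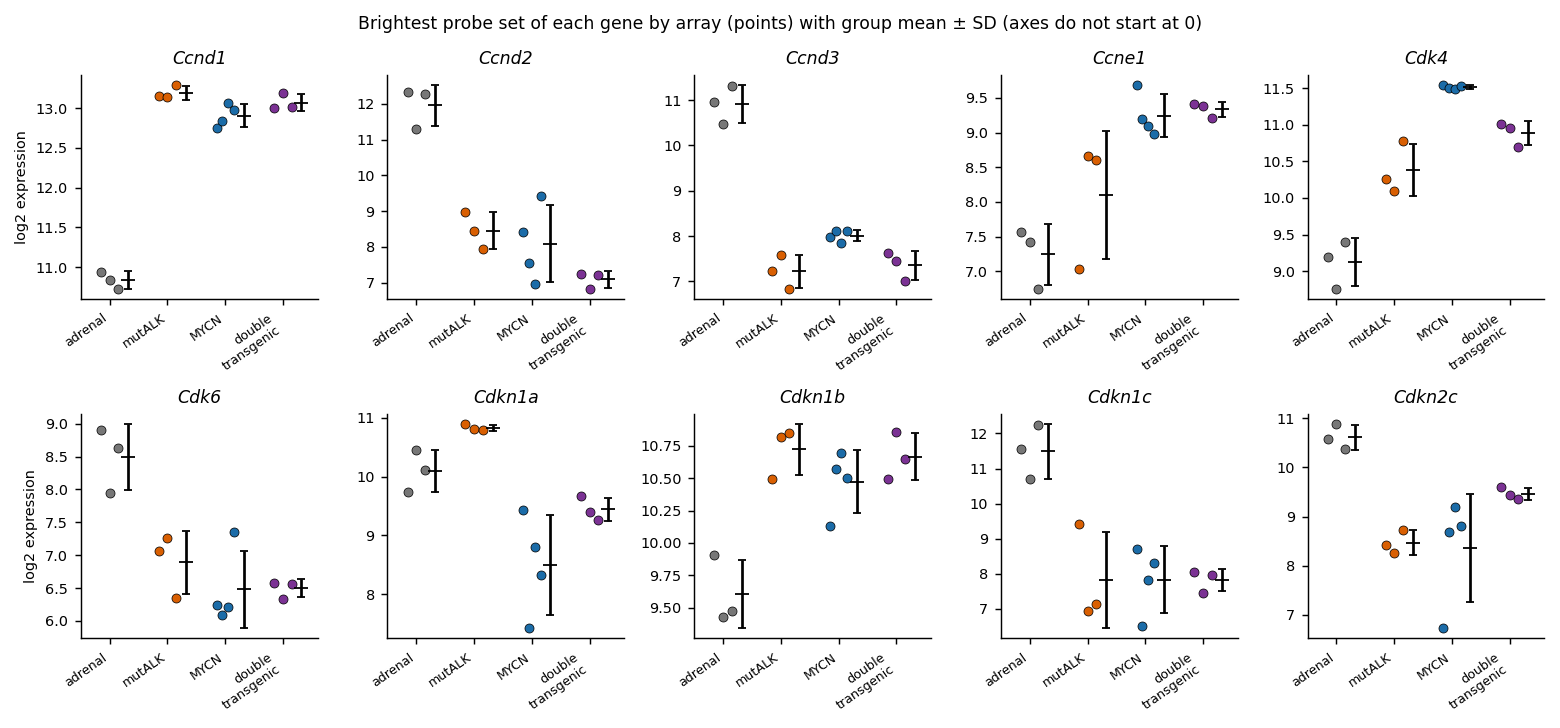
Log2 expression (y axis, not starting at 0) of the brightest probe set of each of the 10 genes in every array, by group (x axis); points are arrays, and the bar and whiskers beside them are the group mean ± SD. The 3 adrenal points lie below every tumour point for Ccnd1, Cdk4 and Cdkn1b and above every tumour point for Ccnd2, Ccnd3, Cdk6, Cdkn1c and Cdkn2c.

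Ccnd1, which encodes cyclin D1, was the D cyclin with higher transcript levels in tumours. Its brightest probe set read 10.94, 10.84 and 10.73 in the 3 adrenal arrays and 13.15, 13.14 and 13.29 in mutALK tumours. MYCN tumours read 12.75, 12.83, 13.06 and 12.98, and double transgenic tumours 13.003, 13.19 and 13.01. All 10 tumours were above all 3 adrenal arrays, and the spread within each group was small. Ccnd1 rose by 2.36 ± 0.11 in mutALK (5.12-fold, adjusted p = 2.22e-07), by 2.07 ± 0.10 in MYCN (4.19-fold, 9.23e-08) and by 2.23 ± 0.11 in double transgenic tumours (4.69-fold, 1.61e-07). The other probe sets rose as well, so that 3 of 3 were called in each tumour group, with differences from 1.69 to 3.52.

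Between tumour groups the Ccnd1 probe sets did not give the same picture. On the brightest one, mutALK minus MYCN was 0.29 ± 0.10 (adjusted p = 0.0562) and double transgenic minus MYCN was 0.16 ± 0.10 (0.362). The probe set 1448698_at read 12.86, 12.74 and 13.05 in mutALK and 12.87, 12.80 and 13.14 in double transgenic tumours, against 12.09, 11.91, 12.30 and 12.07 in MYCN tumours. On it, both groups that carry mutated ALK lay above every MYCN tumour. In a fit of all 34958 probe sets it was higher by 0.79 ± 0.13 in mutALK than in MYCN tumours (adjusted p = 0.0012) and by 0.84 ± 0.13 in double transgenic than in MYCN tumours (0.00269). The remaining Ccnd1 probe set, 1417419_at, gave 0.38 ± 0.17 (adjusted p = 0.124) and -0.09 ± 0.17 (0.794) for the same comparisons. With the mean of the 3 probe sets, mutALK minus MYCN was 0.49 and was called (adjusted p = 0.00874), the lowest of the alternatives, whose highest was 0.49.

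Ccnd2, which encodes cyclin D2, went the other way. It read 12.32, 11.30 and 12.26 in the adrenal arrays, 8.98, 8.44 and 7.96 in mutALK, 8.41, 7.56, 6.96 and 9.42 in MYCN and 7.25, 6.83 and 7.21 in double transgenic tumours. No tumour reached the lowest adrenal array, and the double transgenic tumours were below every mutALK tumour. Ccnd2 fell by 3.50 ± 0.53 in mutALK (11.3-fold, adjusted p = 0.000285), by 3.87 ± 0.50 in MYCN (14.6-fold, 4.84e-05) and by 4.86 ± 0.53 in double transgenic tumours (29.1-fold, 1.76e-05). All 7 probe sets of Ccnd2 fell in each comparison with the gland, by at least 2.71.

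The order of Ccnd2 among tumours was mutALK, MYCN, double transgenic, and no neighbours in it differed by the test. Double transgenic minus MYCN was -0.99 ± 0.50 (adjusted p = 0.233) and mutALK minus MYCN was 0.37 ± 0.50 (0.657). Double transgenic minus mutALK was -1.36 ± 0.53 (adjusted p = 0.114), with a 95% interval from -2.53 to -0.19. One of the 7 probe sets, 1430127_a_at, was called in the fit of all probe sets, where double transgenic tumours were lower than MYCN tumours by -1.48 ± 0.41 (adjusted p = 0.036) and lower than mutALK tumours by -1.70 ± 0.44 (0.0272).

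Markers of blood vessel lining were, like Ccnd2, lower in tumours than in the gland and lowest in double transgenic tumours. The mean of 13 endothelial markers was 8.98 to 9.08 in adrenal, 6.84 to 7.47 in mutALK, 6.67 to 7.84 in MYCN and 5.68 to 6.26 in double transgenic arrays. Of these markers 13 of 13 were called lower in each tumour group than in the gland, and 9 of 13 were lower in double transgenic than in MYCN and than in mutALK tumours. The mean of 8 fat cell markers was 10.54 to 12.35 in adrenal, 6.34 to 7.67 in mutALK, 6.45 to 9.19 in MYCN and 5.62 to 5.93 in double transgenic arrays. MYCN 4 had the highest Ccnd2, endothelial (7.84) and fat cell (9.19) values of its group. In double transgenic arrays Ccnd2 and the endothelial mean had the same order. Other arrays went the other way. MYCN 1, with Ccnd2 at 8.41, had the lowest endothelial (6.67) and fat cell (6.45) means of its group. The array mutALK 1 had the highest Ccnd2 (8.98), the lowest endothelial (6.84) and the highest fat cell mean (7.67) of its group. Adrenal 2 had the lowest Ccnd2 (11.30) and the highest fat cell mean (12.35) of its group. The endothelial means of the gland hardly differed, at 9.077, 9.083 and 8.977 in adrenal 1, 2 and 3. No marker probe set reads 0 on this scale, whose lowest value is 2.04. The part of vessel, fat and cortex cells in the difference was not tested, and in these bulk samples fewer cells of a type and less RNA per cell cannot be told apart.

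Ccnd3, which encodes cyclin D3, was also lower in tumours. It read 10.96, 10.47 and 11.31 in adrenal, 7.24, 7.58 and 6.84 in mutALK, 7.97, 8.12, 7.86 and 8.10 in MYCN and 7.62, 7.44 and 7.0 in double transgenic arrays. Every MYCN tumour was above every tumour of the other groups, although far below the gland. Ccnd3 fell by 3.70 ± 0.24 in mutALK (adjusted p = 1.08e-06), by 2.90 ± 0.22 in MYCN (1.06e-06) and by 3.56 ± 0.24 in double transgenic tumours (7.29e-07). It was lower in mutALK than in MYCN tumours by -0.79 ± 0.22 (adjusted p = 0.019), and double transgenic minus MYCN was -0.66 ± 0.22 (0.0804). Without mutALK 3 the first of these was -0.60 (adjusted p = 0.0835), and without the 5 liver-rich arrays it was -0.40 (0.282, highest of the alternatives, lowest 0.00607). It was also lost with the shared title numbers as a random block (adjusted p = 0.0616) and with the mean of the probe sets (-0.34, 0.235). Without the liver-rich arrays double transgenic minus MYCN was -0.76 and was called (adjusted p = 0.0464).

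The fall of Ccnd3 rests on its brightest probe set. The other 2, with means of 6.09 and 4.29 over all arrays, differed from the gland by -0.16 to -0.54, and 1 of these 6 differences was called (1444323_at in mutALK, -0.53 ± 0.17, adjusted p = 0.032). With the mean of all 3 probe sets the falls were -1.48, -1.13 and -1.51 for the 3 tumour groups in that order, and each was still called (highest adjusted p of the 3 = 0.000466).

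**Figure D2:**
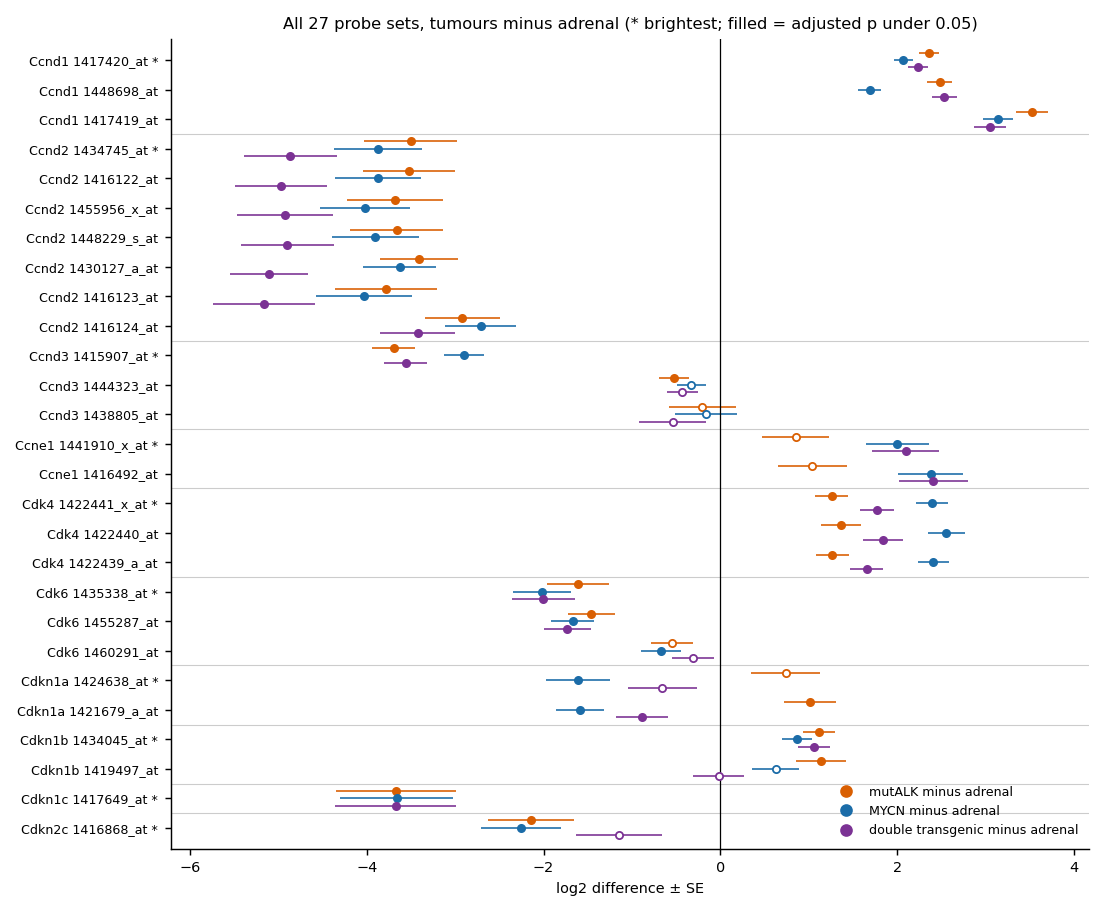
Log2 difference from adrenal gland ± SE (x axis) of all 27 probe sets (y axis, the brightest of each gene with an asterisk) in mutALK, MYCN and double transgenic tumours; filled points have an adjusted p under 0.05 in the fit of all probe sets. The 7 Ccnd2 probe sets lie together at -2.71 to -5.17, while Ccnd3, Cdk6 and Cdkn1b each have a probe set that lies near 0 in at least 1 tumour group.

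Cdk4 and Cdk6, the partner kinases of the D cyclins, moved in opposite directions. A promoter window of each is shown here because MYC proteins bind the E-box CACGTG, and these windows differ in how many copies they hold. Whether the copies bear on the level of either gene was not tested. Each window runs from 250 bases before to 50 after a RefSeq start site, 5′ to 3′ on the gene's strand, with E-boxes in capitals. The Cdk4 window lies at chr10:127063285-127063584 and the Cdk6 window at chr5:3343643-3343942, both on the plus strand of GRCm38.p6. The start site of the Cdk4 window is the start of the RefSeq gene (127063535). The RefSeq Cdk6 gene starts earlier, at 3341004, so its window lies at a start site inside the gene. No Cdk6 window was found at 3341004, so E-boxes there were not counted.
Cdk4: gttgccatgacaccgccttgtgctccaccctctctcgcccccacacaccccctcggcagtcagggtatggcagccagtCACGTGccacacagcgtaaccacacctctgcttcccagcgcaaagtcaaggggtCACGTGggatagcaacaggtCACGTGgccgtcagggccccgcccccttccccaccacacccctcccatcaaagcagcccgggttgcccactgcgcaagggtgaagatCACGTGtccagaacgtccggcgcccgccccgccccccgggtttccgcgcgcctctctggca
Cdk6: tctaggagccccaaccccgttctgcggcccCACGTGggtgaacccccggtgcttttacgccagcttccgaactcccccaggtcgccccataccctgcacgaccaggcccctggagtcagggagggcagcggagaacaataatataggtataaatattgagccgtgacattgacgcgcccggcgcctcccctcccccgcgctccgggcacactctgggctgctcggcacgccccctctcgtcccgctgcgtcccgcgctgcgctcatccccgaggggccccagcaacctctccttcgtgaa

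The Cdk4 window holds 4 E-boxes, whose first bases lie at -172, -118, -98 and -11 from the start site. The Cdk6 window, inside the gene, holds 1, at -220 from its own start site. Of all 32851 promoter windows of this length in the RefSeq table, 7.15% hold at least 1 E-box and 8 windows (0.0244%) hold 4 or more. Windows on the chromosome where RefSeq places the gene were found for 7 of the 10 genes, 10 windows in all. Of the other 8 windows 1 held an E-box (the Cdkn2c window at chr4:109665323-109665622). The E2F-type letters TTCCCGC and TTGGCGC were searched on both strands too, and the first was found once, in the other Cdkn2c window, and the second not at all, against 4.6% and 2.45% of all windows. No match overlapped another. A match describes letters in a window and does not show binding.

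Cdk4 was highest in the MYCN tumours, where it hardly varied. It read 9.20, 8.76 and 9.41 in adrenal, 10.26, 10.10 and 10.78 in mutALK, 11.55, 11.5, 11.49 and 11.53 in MYCN and 11.01, 10.96 and 10.70 in double transgenic arrays. Each MYCN tumour lay above all other arrays, and mutALK and double transgenic tumours overlapped. Cdk4 rose by 1.26 ± 0.19 in mutALK (2.39-fold, adjusted p = 0.000273), by 2.39 ± 0.18 in MYCN (5.26-fold, 8.29e-07) and by 1.77 ± 0.19 in double transgenic tumours (3.41-fold, 1.54e-05). All 3 probe sets of Cdk4 rose in each tumour group.

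Between tumours, Cdk4 was lower in mutALK than in MYCN tumours by -1.14 ± 0.18 (adjusted p = 0.000685), and that call held under all 24 alternatives. It was also lower in double transgenic than in MYCN tumours, by -0.63 ± 0.18 (adjusted p = 0.0404), with the groups apart in 3 of 3 tumours. That call was lost in 10 of 24 alternatives, among them without any 1 of the MYCN or double transgenic arrays or adrenal 1 (adjusted p = 0.00786 to 0.149 over alternatives), while its value stayed between -0.53 and -0.70. In the fit of all probe sets, 3 of 3 Cdk4 probe sets were lower in double transgenic than in MYCN tumours (adjusted p = 0.0169 to 0.0466). Double transgenic minus mutALK was 0.51 ± 0.19 (adjusted p = 0.0981). Without the liver-rich arrays it was 0.73 and was called (adjusted p = 0.0471), and mutALK minus adrenal was 0.80 and still called (0.0128).

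Cdk6 was lower in tumours than in the gland. It read 8.91, 7.94 and 8.63 in adrenal, 7.06, 7.26 and 6.35 in mutALK, 6.25, 6.09, 6.22 and 7.35 in MYCN and 6.58, 6.34 and 6.56 in double transgenic arrays. The gland lay above all tumours, and the tumour groups overlapped one another. Cdk6 fell by 1.61 ± 0.35 in mutALK (adjusted p = 0.00322), by 2.02 ± 0.33 in MYCN (0.000301) and by 2.00 ± 0.35 in double transgenic tumours (0.000581). No difference between tumour groups was called, and the 95% interval of double transgenic minus MYCN ran from -0.71 to 0.74. Of its 3 probe sets 2 fell in every comparison with the gland, and the dim one (1460291_at, mean 4.25) fell in MYCN tumours only by the test, at -0.67 ± 0.22 (adjusted p = 0.0273), with values of -0.55 ± 0.24 in mutALK (0.0968) and -0.31 ± 0.24 in double transgenic tumours (0.331).

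Ccne1, which encodes cyclin E1, was higher than in the gland in both groups with a MYCN transgene. It read 7.56, 7.42 and 6.75 in adrenal, 7.03, 8.66 and 8.60 in mutALK, 9.69, 9.20, 9.10 and 8.99 in MYCN and 9.41, 9.39 and 9.21 in double transgenic arrays. All 7 tumours with the MYCN transgene lay above all mutALK tumours, and mutALK 1 lay within the range of the gland. Ccne1 rose by 2.00 ± 0.36 in MYCN (adjusted p = 0.000571) and by 2.09 ± 0.38 in double transgenic tumours (0.000736), and mutALK minus adrenal was 0.85 ± 0.38 (0.0986). It was lower in mutALK than in MYCN tumours by -1.15 ± 0.36 (adjusted p = 0.0299), and double transgenic minus mutALK was 1.24 ± 0.38 (0.0516). The second probe set, 1416492_at, was called in both, at -1.34 ± 0.37 (adjusted p = 0.0176) and 1.37 ± 0.39 (0.0396). MYCN and double transgenic tumours differed by 0.09 ± 0.36 (adjusted p = 0.91, 95% interval -0.69 to 0.88).

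A single array carried much of this. Without mutALK 1 the difference from the gland was 1.38 and was called (adjusted p = 0.00145), and mutALK minus MYCN was -0.62 and was not (0.0871). Without the 5 liver-rich arrays these values were 1.5 (adjusted p = 0.0269) and -0.60 (0.315). Double transgenic minus mutALK was 0.71 without mutALK 1 (adjusted p = 0.11) and 0.64 without the liver-rich arrays (0.358). Over all alternatives the adjusted p ran from 0.00145 to 0.315 for the first comparison and from 0.0202 to 0.315 for the second. The second call was also lost without MYCN 1, MYCN 2 or MYCN 3 (values -1.0 to -1.20).

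Cdkn1a, a target of p53 that halts the cycle, was the gene that most separated the tumour groups. It read 9.73, 10.45 and 10.12 in adrenal and 10.90, 10.81 and 10.80 in mutALK tumours. MYCN tumours read 9.43, 7.42, 8.81 and 8.32, and double transgenic tumours 9.66, 9.39 and 9.27. Every mutALK tumour was above all other arrays, and the MYCN and double transgenic tumours were below the gland. Cdkn1a exceeded its MYCN tumour level in mutALK tumours by 2.34 ± 0.37 (5.08-fold, adjusted p = 0.000681), which held under all 24 alternatives, and it fell by 1.61 ± 0.37 in MYCN tumours against the gland (0.003). The values against the gland were 0.74 ± 0.39 in mutALK (adjusted p = 0.163) and -0.66 ± 0.39 in double transgenic tumours (0.194).

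With both transgenes Cdkn1a lay between the single ones. Double transgenic tumours were lower than mutALK tumours by -1.40 ± 0.39 (adjusted p = 0.037), and double transgenic minus MYCN was 0.95 ± 0.37 (0.119). The first call was lost in 12 of 24 alternatives, among them without any 1 mutALK or double transgenic array, MYCN 3 or MYCN 4 (adjusted p = 0.0111 to 0.109 over alternatives), with values between -1.31 and -1.65. Without the liver-rich arrays it was -1.48 (adjusted p = 0.0728). The second probe set of Cdkn1a gave the same order of group means. It read 10.44, 10.0 and 10.14 in mutALK, 8.52, 8.32 and 8.02 in double transgenic, 8.32, 6.93, 7.80 and 7.29 in MYCN and 9.0, 9.33 and 9.20 in adrenal arrays. On it mutALK tumours were above the gland by 1.02 ± 0.29 (adjusted p = 0.0164), and double transgenic tumours were below it by -0.89 ± 0.29 (0.0267) and below mutALK tumours by -1.91 ± 0.29 (0.00309).

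Cdkn1b, which encodes p27, rose with little difference between tumour groups on its brightest probe set. It read 9.91, 9.43 and 9.48 in adrenal, 10.50, 10.82 and 10.85 in mutALK, 10.13, 10.57, 10.70 and 10.50 in MYCN and 10.49, 10.86 and 10.65 in double transgenic arrays. The gland was below every tumour. The rises were 1.12 ± 0.18 in mutALK (adjusted p = 0.000421), 0.87 ± 0.17 in MYCN (0.00101) and 1.06 ± 0.18 in double transgenic tumours (0.000432). On the second probe set, 1419497_at, the rise was called in mutALK tumours alone, at 1.13 ± 0.28 (adjusted p = 0.00743). It read 7.43, 7.51 and 7.70 in mutALK, 6.77, 6.91, 7.50 and 6.99 in MYCN, 6.39, 6.56 and 6.23 in double transgenic and 7.11, 5.78 and 6.36 in adrenal arrays. MYCN minus adrenal was 0.63 ± 0.27 (adjusted p = 0.073), with overlapping groups. In double transgenic tumours it was lower than in mutALK tumours by -1.15 ± 0.28 (adjusted p = 0.0221), with a value of -0.02 ± 0.28 against the gland (0.962). With the mean of both probe sets, double transgenic minus adrenal was 0.52 and was not called (adjusted p = 0.0706, highest of the alternatives, lowest 0.00027).

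Cdkn1c, an imprinted gene that encodes p57 and is known to be expressed in adrenal cortex, fell in all 3 tumour groups. It read 11.54, 10.69 and 12.24 in adrenal, 9.40, 6.94 and 7.12 in mutALK, 8.71, 6.51, 7.82 and 8.29 in MYCN and 8.04, 7.45 and 7.96 in double transgenic arrays. All tumours were below the gland, and within mutALK and MYCN tumours single arrays differed by more than 2 units. Cdkn1c fell by 3.67 ± 0.69 in mutALK (12.7-fold, adjusted p = 0.00116), by 3.66 ± 0.64 in MYCN (12.6-fold, 0.000503) and by 3.67 ± 0.69 in double transgenic tumours (12.8-fold, 0.000871). Between tumour groups no difference was called, and the 95% interval of mutALK minus MYCN ran from -1.42 to 1.40, so sizeable differences in either direction were not detectable. The mutALK mean depended on mutALK 1. Without it mutALK minus adrenal was -4.46 (adjusted p = 0.000212) and mutALK minus MYCN was -0.80 (0.364), and without the liver-rich arrays they were -4.95 (0.000414) and -1.33 (0.0593, lowest of the alternatives, highest 0.995).

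The high mutALK array for Cdkn1c, mutALK 1, also had the highest macrophage mean of all arrays (9.88 over 11 markers, 7.80 to 9.07 in the others). Its Schwann cell mean (8.19 over 7 markers) was the highest after adrenal 2 (8.86). MYCN 1, with the highest Cdkn1c of its group (8.71), had the lowest macrophage (8.30) and Schwann cell (6.26) means of that group. The B cell mean (6 markers) was the highest of its group in both mutALK 1 (6.26) and MYCN 1 (6.73). The part of these cells in the Cdkn1c values was not tested. Adrenal cortex markers fell with Cdkn1c, with 12 of 12 called lower in every tumour group, and their part was not tested either. In the tumours these markers were at 5.15 to 6.71.

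Cdkn2c, the INK4 inhibitor p18, was lower in both single transgenic groups. It read 10.57, 10.88 and 10.38 in adrenal, 8.42, 8.25 and 8.74 in mutALK, 6.73, 8.69, 9.19 and 8.81 in MYCN and 9.60, 9.45 and 9.35 in double transgenic arrays. All double transgenic tumours lay between the gland and every tumour of the other groups. Cdkn2c fell by 2.15 ± 0.49 in mutALK (adjusted p = 0.00392) and by 2.26 ± 0.46 in MYCN tumours (0.00134), and double transgenic minus adrenal was -1.15 ± 0.49 (0.0734). Double transgenic minus MYCN was 1.11 ± 0.46 (adjusted p = 0.141) and double transgenic minus mutALK was 1.0 ± 0.49 (0.204). Without MYCN 1, the lowest array, double transgenic minus adrenal (-1.15) and double transgenic minus mutALK (1.0) were called, with the lowest adjusted p of all alternatives, 0.000376 and 0.00818 (highest 0.291 and 0.471). Double transgenic minus MYCN was then 0.57 and was not called (adjusted p = 0.0661). MYCN 1 also had the highest B cell marker mean (6.73 over 6 markers, 4.88 to 5.56 in the other MYCN arrays), whose part was not tested. Without the 5 liver-rich arrays mutALK minus adrenal was -2.23 and was not called (adjusted p = 0.105, lowest 1.25e-05 over alternatives); it then rests on mutALK 2 alone.

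**Figure D3:**
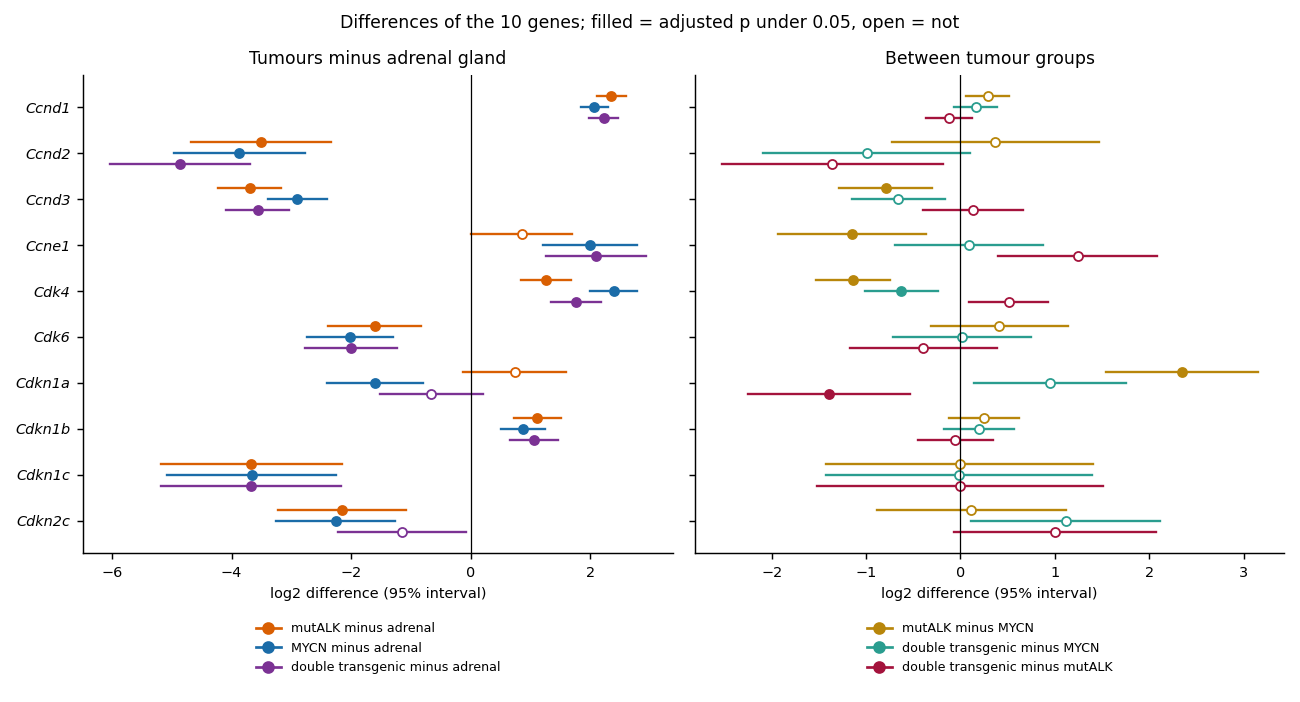
Log2 differences (x axis) of the brightest probe set of each of the 10 genes (y axis) with 95% intervals, for tumours minus adrenal gland on the left and between tumour groups on the right; filled points have an adjusted p under 0.05. On the right the filled points are Ccnd3, Ccne1, Cdk4 and Cdkn1a in mutALK minus MYCN, Cdk4 in double transgenic minus MYCN and Cdkn1a in double transgenic minus mutALK.

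Counted over the 10 genes, mutALK minus MYCN had 1 higher (Cdkn1a) and 3 lower (Ccnd3, Ccne1 and Cdk4), against 13.6% and 17.2% of all genes. Double transgenic minus MYCN had 0 higher and 1 lower (Cdk4), against 6.16% and 6.66%. Double transgenic minus mutALK had 0 higher and 1 lower (Cdkn1a), against 8.39% and 6.03%. Groups did not overlap for 5, 3 and 4 of the 10 genes, against 40.6%, 30.6% and 32.9% of all genes. By probe set 9, 5 and 5 of the 27 were called, against 28%, 13.3% and 14.1%. The share called between tumour groups was thus near that of all genes. Without the 5 liver-rich arrays mutALK is 1 array and shares of all genes were not computed, so no counts are given for that fit.

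The genes downstream and beside the 10 were taken from lists of the pathway. Their counts are to be read against the shares of all genes called higher and lower, which were 21.3% and 21% in mutALK, 25.3% and 24.8% in MYCN and 24.3% and 24.2% in double transgenic tumours against the gland. Between tumours they were 13.6% and 17.2% in mutALK minus MYCN, 6.16% and 6.66% in double transgenic minus MYCN and 8.39% and 6.03% in double transgenic minus mutALK. E2F-responsive DNA synthesis genes were higher in every tumour group than in the gland. Of the 19 measured, 17 rose in mutALK and 19 in both MYCN and double transgenic tumours, with median differences of 1.80, 2.81 and 2.52 against 0.00, -0.02 and -0.03 over all genes. Uhrf1, which maintains DNA methylation at replication, rose by 3.04 ± 0.27, 4.48 ± 0.26 and 4.43 ± 0.27, and Prim1, a primase subunit, rose by 3.09 ± 0.24 in mutALK and by 4.31 ± 0.23 in MYCN tumours. In mutALK minus MYCN 17 of the 19 were lower and 0 higher (median -1.21), led by Gins2, a part of the replicative helicase, at -1.95 ± 0.22 (adjusted p = 0.000112). In double transgenic minus mutALK 10 were higher and 0 lower (median 0.79), and in double transgenic minus MYCN 1 was lower (Gins2, -1.15 ± 0.22, adjusted p = 0.00818).

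Cyclins and kinases of other steps also rose in part. Of 12 other cyclins, kinases and activators, 8 rose with mutated ALK, 11 with MYCN and 9 with both, where 1 fell too. Ccna2, cyclin A2 of S phase, rose by 3.25 ± 0.29, 4.16 ± 0.27 and 3.96 ± 0.29. In mutALK minus MYCN 9 of 12 were lower, among them Ccnb2, a mitotic cyclin, at -1.96 ± 0.30 (adjusted p = 0.000589) and Cdc25a, a phosphatase that activates Cdk2, at -1.26 ± 0.15 (0.000125). Cdc25a was also lower with both transgenes than with MYCN alone, at -0.75 ± 0.15 (adjusted p = 0.00874). Among the 13 pocket proteins, E2F and DP factors, 9 rose and 3 fell in mutALK, 10 and 2 in MYCN and 8 and 3 in double transgenic tumours. E2f8, a repressor E2F that E2F itself induces, rose by 2.14 ± 0.36, 3.68 ± 0.34 and 3.21 ± 0.36, and E2f1, an activator, had a lower mutALK than MYCN level, at -1.21 ± 0.25 (adjusted p = 0.00322).

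The ubiquitin ligase list, parts that mark G1 regulators for breakdown, had 7 higher and 2 lower of 14 in mutALK, 8 and 2 in MYCN and 9 and 3 in double transgenic tumours. Skp2, the subunit that recognises p27, rose by 1.96 ± 0.38, 4.07 ± 0.36 and 2.88 ± 0.38 in the same order. It was lower in mutALK than in MYCN tumours by -2.11 ± 0.36 (adjusted p = 0.00106) and lower in double transgenic than in MYCN tumours by -1.19 ± 0.36 (0.0489). The Cdkn1b transcript rose in all 3 groups on its brightest probe set, and on the other the rise was called in mutALK tumours alone. These arrays do not measure its protein.

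A list of 5 other genes with Cdkn names held Cdkn2a, Cdkn2b, Cdkn2d, Cdkn3 and Cdkn2aip. Against the gland 3 were higher and 0 lower in mutALK, and 2 higher and 1 lower in both MYCN and double transgenic tumours. In mutALK minus MYCN 2 were higher and 1 lower (Cdkn3, -0.76 ± 0.20, adjusted p = 0.0119). Cdkn2a, the locus of Ink4a and Arf, read 9.95, 9.80 and 9.92 in mutALK and 7.13, 6.14, 8.38 and 5.68 in MYCN tumours. Double transgenic tumours read 8.60, 8.13 and 5.36, and the gland 6.13, 5.36 and 6.54. Every mutALK tumour was above all other arrays. Cdkn2a was above the gland in mutALK tumours by 3.88 ± 0.82 (adjusted p = 0.00241) and than in MYCN tumours by 3.06 ± 0.76 (0.00984). Cdkn2b, the neighbouring INK4 gene, fell by 1.5 ± 0.21 in MYCN and by 1.33 ± 0.23 in double transgenic tumours against the gland, and its mutALK level was above its MYCN level by 1.58 ± 0.21 (adjusted p = 0.00027). Cdkn2d, another INK4 inhibitor, rose by 1.75 ± 0.23, 1.18 ± 0.22 and 1.84 ± 0.23 in the 3 groups, and thus opposite to Cdkn2c in both single transgenic groups.

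The p53 target list was mixed, with 6 higher and 5 lower of 17 in mutALK, 5 and 6 in MYCN and 5 and 7 in double transgenic tumours. In mutALK minus MYCN, 4 were higher and 0 lower (median 0.29). They included Phlda3, an Akt inhibitor, at 2.02 ± 0.52 (adjusted p = 0.0111), Trp53inp1 at 1.82 ± 0.38 (0.00345) and Pmaip1, the death protein Noxa, at 1.77 ± 0.32 (0.00155). In double transgenic minus mutALK 1 of the 17 was lower (Pmaip1, -2.12 ± 0.34, adjusted p = 0.00393), 0 were higher and 16 were not called, a share near that of all genes. Of 14 quiescence and FOXO linked regulators 10 fell and 2 rose in mutALK, and 11 fell in both MYCN and double transgenic tumours. Klf4, a factor that raises Cdkn1a in other tissues, fell by 3.69 ± 0.35, 3.87 ± 0.33 and 3.84 ± 0.35.

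**Figure D4:**
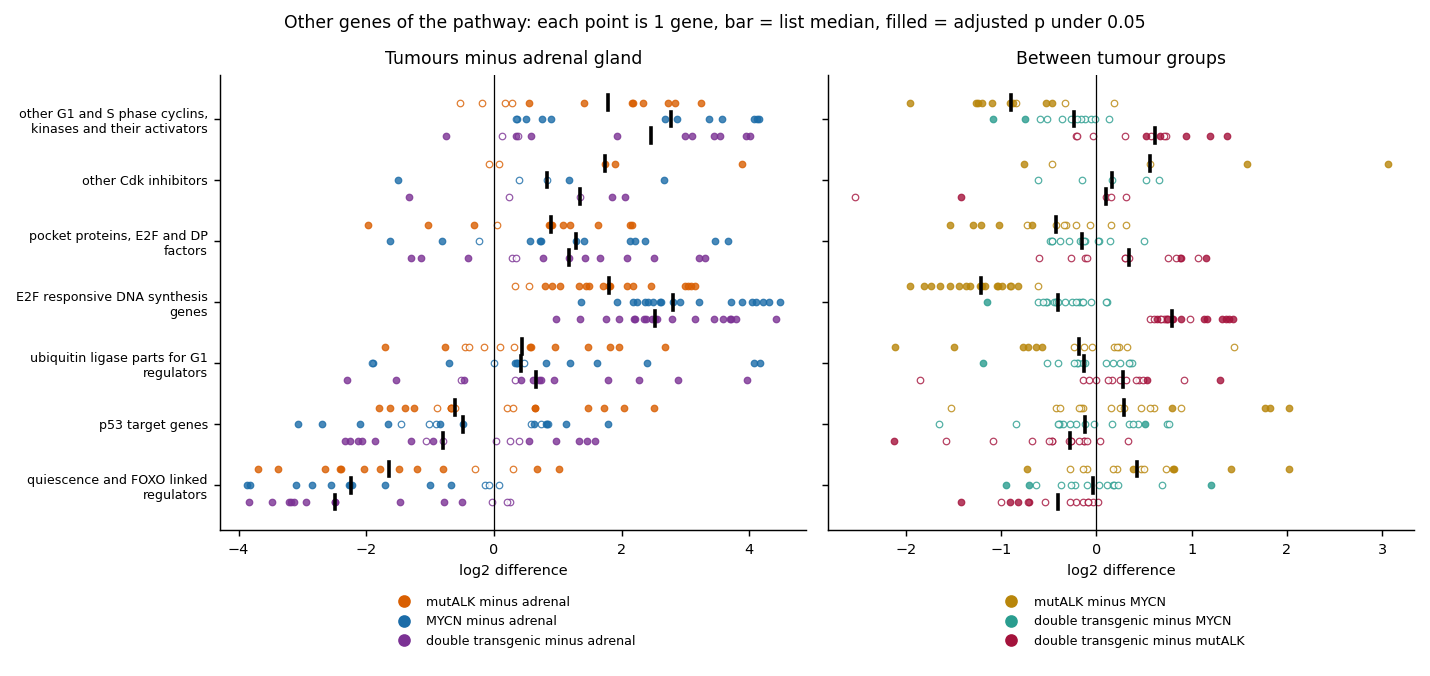
Log2 differences (x axis) of the other genes of the pathway by list (y axis), for tumours minus adrenal gland on the left and between tumour groups on the right; each point is 1 gene, the black bar is the list median and filled points have an adjusted p under 0.05. For the 19 E2F-responsive genes the medians were 1.80, 2.81 and 2.52 against the gland and -1.21 in mutALK minus MYCN.

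The genes with the pattern most like that of a member were found among 15870 genes as those with the smallest root mean square difference over the 13 arrays, after each gene was centred on its own mean. For Ccnd1, whose SD over the arrays was 0.98, they were Mical1 (0.18), Sox4 (0.18), Limd2 (0.19) and Dnmt3a (0.20). For Ccnd2, with an SD of 1.95, they were Cyp4b1 (0.48), Tspo (0.49), Serpinb9 (0.49) and Trim12c (0.53). For Cdkn1c, with an SD of 1.80, they were Dhx58 (0.56), Usp18 (0.59), Trim12c (0.59) and Gdf10 (0.65), so that no gene followed Ccnd2 or Cdkn1c as closely as those 4 followed Ccnd1. Arrays of a group share their tissue, and the likeness is a description.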

How the data were processed

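The 13 arrays were deposited as log2 values, which the authors made with RMA, per the submitters' processing notes, which also name Partek and state no version. RMA corrects background and equalises distributions, which can hide a global shift in RNA. Array medians lay between 5.81 and 5.90, and the number of arrays limits the precision. Of 45101 probe sets, 34958 have exactly 1 symbol in the platform annotation, and 34754 of these matched RefSeq (GRCm38.p6). Where a gene had several, the brightest over all arrays stood for it, with no filter. A limma model (version 3.58.1, R 4.3.3) with a mean for each group used all arrays, with 9 residual and 2.28 prior degrees of freedom. Its 6 contrasts were two-sided, with Benjamini-Hochberg adjustment over 18194 genes. A separate fit covered every probe set. The fit of genes was also run on simulated data with 200 changed genes of 18194. There it found 53 to 69% of the 1-unit changes and 85 to 95% of the 2-unit changes across the 6 comparisons, with 2 to 13 false calls. The simulated noise was independent and normal, and fewer genes changed than were called here, so these shares need not hold for the data. The members and lists were chosen with earlier results of these data known. Besides the 10 members, up to 3 called genes by size per list and comparison could be named, and the 4 genes most like each of Ccnd1, Ccnd2 and Cdkn1c. The 24 alternatives per result covered normalization, probe set choice, a filter on dim genes, eBayes settings, array weights, groups alone, title numbers as a block, sex as a covariate, each array left out, and the 5 liver-rich arrays left out. Sex is not in the labels and was inferred from 3 Y-linked genes against Xist. Arrays mutALK 3, MYCN 1, 2 and 3 and double transgenic 2 and 3 read as male, and all others as female. All adrenal arrays thus read as female, and sex is partly confounded with group. Calls lost with sex were Ccne1 in mutALK minus MYCN (adjusted p = 0.0775), Cdk4 in double transgenic minus MYCN (0.0506) and Cdkn1a in double transgenic minus mutALK (0.0661). Figures used matplotlib 3.10.9 in Python 3.11.15.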

Additional observations from a re-analysis of the deposited data

Results flagged for a closer look

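On its brightest probe set, 1 of the 10 genes had an array far from the rest of its group. In MYCN tumours Cdk6 read 7.35 in MYCN 4 against 6.25, 6.22 and 6.09 in the others, and the gap to the nearest array was 0.876 of the whole range, above Dixon's 95% limit for 4 values. The nearly equally bright probe set 1455287_at read 6.71, 6.53, 6.08 and 7.15 in MYCN 1 to 4, and the dim 1460291_at read 3.59, 4.23, 3.77 and 4.33. On both, MYCN 4 was the highest but nearer to the next array, so the wide gap is that of the brightest probe set. The 10 genes were tested on their brightest probe sets in the MYCN group alone, since the other groups have 3 arrays. Chance gives such a gap in about 1 group of 20. MYCN 4 also had the highest endothelial and fat cell marker means of its group (7.84 and 9.19), whose part was not tested.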

How the results depend on the processing

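Of the 60 differences of the 10 genes, 32 were called, and 26 of these kept call and direction under all 24 alternatives. The other 6 lost the call in at least 1: Ccnd3, Ccne1 (mutALK minus MYCN), Cdk4 (double transgenic minus MYCN), Cdkn1a (double transgenic minus mutALK), Cdkn1b (double transgenic minus adrenal) and Cdkn2c (mutALK minus adrenal). No called difference reversed. Of the 28 differences not called, 10 gained a call in at least 1 alternative. These were Ccnd2, Ccne1, Cdk4 and Cdkn2c in double transgenic minus mutALK, and Ccnd3 and Cdkn1a in double transgenic minus MYCN. The rest were Ccne1 and Cdkn1a in mutALK minus adrenal, Cdkn2c in double transgenic minus adrenal and Ccnd1 in mutALK minus MYCN. Counts of genes called in double transgenic minus mutALK, 1 in the fit reported, were 2 with the mean of a gene's probe sets, 2 without the dimmest 40% of genes, 3 with the arrays of the 2 groups alone and 0 with sex as a covariate. In double transgenic minus MYCN they were 2 with array weights, 2 with the 2 groups alone, 0 with title numbers as a random block (correlation 0.457) and 0 with sex. With each array left out they ran from 0 to 2 in double transgenic minus MYCN and from 0 to 3 in double transgenic minus mutALK. Shares of all genes called were not computed under the alternatives, so these counts have none beside them. The causes were not tested.

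The sign reversed in 9 differences near 0, none of them ever called. Cdkn1c in mutALK minus MYCN was 0.012 on renewed quantile normalization, 0.0071 after centring, 0.18 with array weights, 0.076 with the block, -1.33 without the liver-rich arrays (sign kept) and -0.80 to 0.43 with each array left out. Cdkn1c in double transgenic minus MYCN was 0.22 with array weights and -0.46 to 0.28 with arrays left out. Against mutALK it was 0.032 with array weights, 0.22 with sex, 0.76 without the liver-rich arrays and -0.45 to 0.78 with arrays left out. Cdk6 in double transgenic minus MYCN was -0.014 on quantile normalization, -0.043 with the block, -0.044 with sex, -0.16 without the liver-rich arrays and -0.11 to 0.31 with arrays left out. Cdkn1b was -0.23 there with the mean of probe sets, and -0.17 to 0.031 against mutALK with arrays left out. Ccnd3 in double transgenic minus mutALK was -0.035 with the mean of probe sets, -0.36 without the liver-rich arrays and -0.056 to 0.32 with arrays left out. In mutALK minus MYCN, Cdkn2c was -0.22 with array weights and -0.43 to 0.39 with arrays left out, and Ccnd2 was -0.030 with sex and -0.0081 to 0.81 with arrays left out. The number of arrays limits all of this, and without the liver-rich arrays mutALK is 1 array, whose spread is assumed to be that of the other groups. No paired analysis was possible because the titles give no replicate numbers shared between groups.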
